A study of Mus musculus with 18 samples.

Results

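Expression of imprinted protein-coding genes was followed in mouse muscle stem cells (MuSCs), which repair muscle after injury, before and during their differentiation. The set holds 40 known mouse imprinted genes, found by symbol among the 20612 gene symbols of the deposited RPKM table (read numbers scaled to gene length and library size). Of these 40 genes, 30 reached 1 RPKM in at least 2 of the 18 libraries and were tested among 11890 genes in all. The other 10 were too low to test and are described by their values, as is Asb4, which passed that filter only through the WT day 0 libraries, where it is high.

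An imprinted gene is read mainly from the copy inherited from 1 parent, because a differentially methylated region (DMR) set in egg or sperm marks the copies differently. Imprinted genes lie in clusters in which paternally and maternally expressed genes share a control region, and several of them regulate growth, metabolism and stem cell quiescence. In muscle progenitors, the growth factor Igf2 and the zinc finger gene Peg3 are among the best studied. RPKM values add up reads of both parental copies, so the values below say how much RNA a gene gave and not from which copy.

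The cells were isolated from semi-cloned mice, labelled C57BL/6 and 4 months old, which were made by injecting haploid embryonic stem cells into B6D2F1 oocytes in place of sperm. QKO (DSMD-QKO) mice carried heterozygous mutations of Dmpk, Six5, Mbnl1 and Dmwd, TKO (DSM-TKO) mice carried those of Dmpk, Six5 and Mbnl1, and WT mice carried none of them. The mutants model the lowered dosage of these genes in myotonic dystrophy type 1, and the question was how mutant and WT cells differ before and during differentiation. All 3 genotypes, WT included, came from haploid cells that lack the H19-DMR and the IG-DMR, the control regions of the Igf2-H19 and Dlk1-Dio3 clusters. The haploid cell replaces the sperm, so the set of chromosomes in the paternal place came through culture as a cell line, and which line gave which mice is not stated in the sources used here. Each genotype had 2 libraries on day 0 (cells grown in T cell conditional medium) and 2 each after 1 and 2 days in differentiation medium. The sources do not say that the 2 libraries came from separate mice or cultures, so a p-value here reflects the spread of library pairs that may be technical replicates.

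Grb10, Zdbf2, Ndn and Nnat were higher than WT in 1 or both mutants at day 1, and their promoters are shown here for that reason. Each is 300 bases from RefSeq (GRCm38.p6), from 250 bases before a transcription start, on the strand of the gene. The capitals mark TGCCGC or its complement GCGGCA, the letters bound in methylated form by ZFP57, a zinc finger protein that keeps imprints through early development. The Grb10 window is chr11:12037371-12037670 (minus strand) with 45 CpG, and those of Zdbf2 are chr1:63200108-63200407 with 15 CpG and chr1:63273019-63273318 with 38 CpG (plus strand). Ndn is shown at chr7:62348027-62348326 with 11 CpG and Nnat at chr2:157559828-157560127 with 17 CpG, both on the plus strand.
Grb10, upstream start: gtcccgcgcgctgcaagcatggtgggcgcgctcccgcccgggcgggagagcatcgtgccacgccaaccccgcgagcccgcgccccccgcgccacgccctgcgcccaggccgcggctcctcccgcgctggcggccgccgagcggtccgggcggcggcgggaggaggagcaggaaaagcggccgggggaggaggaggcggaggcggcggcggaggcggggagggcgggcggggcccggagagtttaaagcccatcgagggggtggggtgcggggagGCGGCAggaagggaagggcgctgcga
Zdbf2, upstream start: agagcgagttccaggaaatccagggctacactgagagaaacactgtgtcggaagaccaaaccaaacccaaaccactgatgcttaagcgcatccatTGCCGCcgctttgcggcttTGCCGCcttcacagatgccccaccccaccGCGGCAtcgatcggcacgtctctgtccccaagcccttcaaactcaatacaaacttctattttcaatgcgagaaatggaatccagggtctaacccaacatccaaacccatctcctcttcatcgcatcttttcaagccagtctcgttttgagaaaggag
Zdbf2, downstream start: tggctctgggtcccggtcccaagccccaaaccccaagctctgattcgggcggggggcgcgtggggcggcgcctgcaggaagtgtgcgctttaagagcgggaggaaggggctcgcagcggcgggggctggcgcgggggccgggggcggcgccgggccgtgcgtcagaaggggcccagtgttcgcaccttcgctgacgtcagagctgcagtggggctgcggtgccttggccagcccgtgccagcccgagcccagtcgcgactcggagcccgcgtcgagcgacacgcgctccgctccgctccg
Ndn: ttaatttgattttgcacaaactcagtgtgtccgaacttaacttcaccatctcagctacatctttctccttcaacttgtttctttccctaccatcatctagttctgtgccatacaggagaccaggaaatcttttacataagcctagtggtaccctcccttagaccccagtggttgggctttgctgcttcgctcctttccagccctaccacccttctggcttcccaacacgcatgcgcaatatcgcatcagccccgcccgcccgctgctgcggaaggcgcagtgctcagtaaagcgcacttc
Nnat: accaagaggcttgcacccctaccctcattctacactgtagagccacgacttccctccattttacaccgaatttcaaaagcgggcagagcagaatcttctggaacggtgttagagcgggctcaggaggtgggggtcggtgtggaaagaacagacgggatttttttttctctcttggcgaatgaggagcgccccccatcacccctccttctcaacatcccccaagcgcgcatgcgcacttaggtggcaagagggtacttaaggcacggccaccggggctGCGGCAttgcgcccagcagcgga
The ZFP57 letters occurred on either strand in 14 of 56 start windows of the 34 imprinted genes with a RefSeq promoter (25%), and in 11.6% of all 32851 windows. They occurred 3 times at the upstream start of Zdbf2, at 1 place each at Grb10 and Nnat, and not in the downstream Zdbf2 window or the Ndn window. A second Grb10 start, chr11:12027922-12028221, had 9 CpG and no match. The 14 windows with the ZFP57 letters belong to 13 genes, as Mest has overlapping windows. The median window of the imprinted genes had 15 CpG, against 7 over all windows. The ZFP57 letters themselves hold a CpG, and the part of CpG content in their share of 25% was not tested. CAGCTG, an E-box of the kind bound by MyoD, was in 12.5% of the imprinted windows and in 16.3% of all, and GCCATNTT, the core of YY1, in 5.36% of the imprinted windows and 6.05% of all. These are matches of letters and were not tested for binding, and methylation was not measured.

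The libraries differed in ways that touch the results. Depth, recovered from the steps in the RPKM values, was 34.8 to 75.3 M reads, at which 1 read on 1 kb of transcript was 0.0133 to 0.0288 RPKM. Myod1, which specifies muscle cells, stood at 342 to 1009 RPKM and Pax7, the marker of MuSCs, at 2.34 to 27.6 RPKM. No endothelial, Schwann or adipocyte marker passed the filter. Of 5 immune markers 2 did, Cd68 at 0.0835 to 3.16 RPKM and Lyz2 at most 1.42 RPKM, and neither differed from WT at day 0 by limma. The summed 8 myogenic markers at day 0 were 2508 to 2989 RPKM in QKO, 2651 to 3258 in TKO and 1405 to 1447 in WT. Of these 8 genes, 4 were higher than WT in each mutant (50%, against 35.5% of all genes in QKO and 23% in TKO). The summed 6 fibroblast markers were 175 to 226 RPKM in QKO, 174 to 178 in TKO and 88.5 to 92.3 in WT. Of the 4 tested, 3 were higher in QKO (75%, against 35.5% of all genes) and 2 in TKO (50%, against 23% of all genes). Nearly all of the day 0 sum was Ly6a and Col3a1. Ly6a was at 85.1 and 108 RPKM in QKO, 83.7 and 80.3 in TKO and 56.1 and 59.5 in WT. Col3a1 was at 82.8 and 112 RPKM in QKO, 84.6 and 85.4 in TKO and 32.3 and 32.7 in WT. Thy1 was at 6.47 and 6.16 RPKM in QKO, 9.64 and 7.79 in TKO and 0.0937 and 0.019 in WT. Over all libraries Col1a1 did not exceed 5.38 RPKM, Lum was at 0 in 15 and Pdgfra was at most 0.433 RPKM. The summed 4 pericyte and smooth muscle markers were 566 to 630 RPKM in QKO, 578 to 606 in TKO and 321 to 422 in WT. Nearly all of that sum was Acta2, at 561 and 621 RPKM in QKO, 601 and 568 in TKO and 316 and 418 in WT. Myh11 did not exceed 0.0987 RPKM, and 1 of the 3 tested was higher in each mutant (33.3%). The part of these markers in the day 0 differences below was not tested. In bulk RNA, fewer cells of a type and less RNA per cell cannot be told apart. The WT day 0 libraries stood apart from all others by position genes: Hoxb2 was at 10.2 and 17.5 RPKM there and at most 0.507 elsewhere, and Hoxc10 at 0.68 and 0.793 RPKM there and 14.4 to 34.2 elsewhere, WT days 1 and 2 included. WT day 0 replicate 2 also summed to 555791 RPKM over its genes, against 370850 to 428739 in the other 17. The second library labelled WT day 2 lay near the mutants: it fell within the range of the 4 mutant day 2 libraries for 23 of 30 imprinted genes (64.8% of all genes tested), and the first for 10 (52.3% of all). For the 40 genes, values that passed between mutant and WT at day 0, or in WT between day 2 and day 0, are also given without 1 of the WT libraries compared. With both WT day 0 libraries left out there is no WT group at day 0, so none of these values could be had without the pair.

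The imprinted genes covered a wide range of levels. Mean RPKM over the 18 libraries was at least 100 for 5 of the 40 genes, from 10 to 100 for 14, from 1 to 10 for 9 and under 1 for 12. Igf2 led with a mean of 739 RPKM, followed by Gnas (317), which encodes the stimulatory G protein alpha subunit, Cd81 (294), a tetraspanin of the cell surface, Peg3 (177) and Mest (167). The other end held Dlk1, the Notch-related paternally expressed gene of the Dlk1-Dio3 cluster. It was at 0.323 and 0.111 RPKM in QKO, 0.107 and 0.0568 in TKO and 0.264 and 0.0996 in WT at day 0, and at most 0.0902 later. Its neighbour Rtl1, a retrotransposon-derived gene, did not exceed 0.431 RPKM, and these belong to a cluster whose control region was deleted on the haploid side in all mice. Both symbols have a second row in the table, and the higher one was used.

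**Figure D1:**
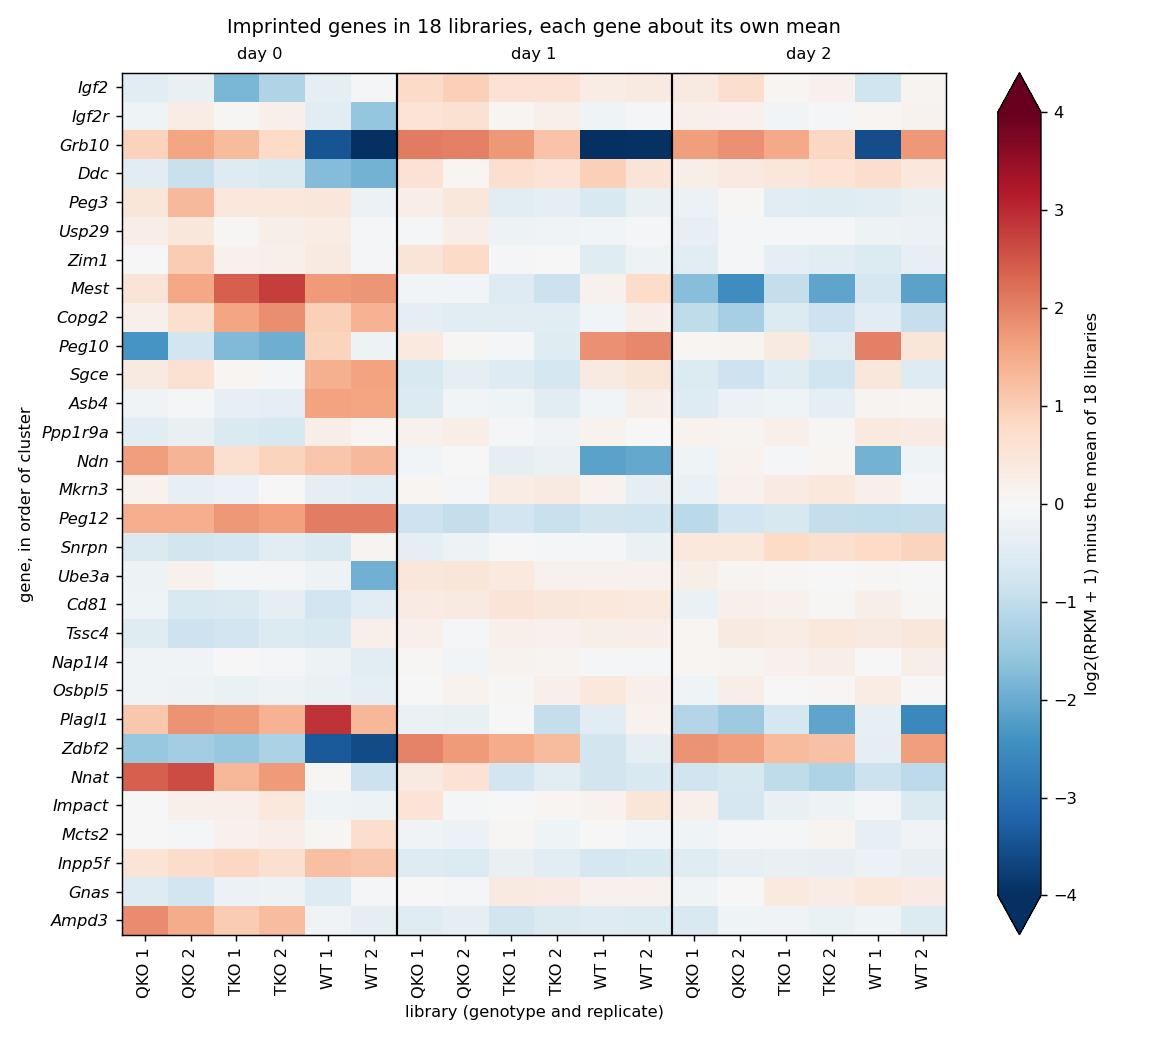
Colours give log2(RPKM + 1) of the 30 tested imprinted genes in each of the 18 libraries less the mean of the gene over all 18, red above and blue below it, with genes in order of cluster down the page and libraries across it. Grb10 is dark blue in WT except in WT day 2 replicate 2 (94.4 RPKM), and Mest, Peg12 and Plagl1 change from red at day 0 to blue at day 2.

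Phlda2, Slc22a18, Ascl2 and Kcnq1, maternally expressed genes of the Kcnq1 cluster, stayed at or under 0.218 RPKM in every library. Magel2 of the Prader-Willi/Angelman cluster did not exceed 0.0642 RPKM, Rasgrf1, a Ras exchange factor, 0.0243 RPKM, and Nap1l5 0.405 RPKM. Slc38a4, an amino acid transporter, reached 1.32 RPKM in 1 QKO library at day 1, with 0.257 RPKM in the other, and was at 0.922 and 0.176 RPKM in QKO at day 2. It was at most 0.357 RPKM in all remaining libraries.

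At day 0, imprinted genes differed from WT in both directions in both mutants. In QKO 15 of the 30 tested genes passed (8 higher, 7 lower), where 35.5% of all 11890 genes did, and 9 passed without WT day 0 replicate 2. In TKO 12 passed (6 higher, 6 lower), where 23% of all genes did. Asb4 is among the lower genes of both counts and, having entered through WT day 0, had to differ there. Without it, 14 of 29 passed in QKO (8 higher, 6 lower) and 11 of 29 in TKO (6 higher, 5 lower). The median log2 fold change of these 29 was 0.17 in QKO and 0.08 in TKO, and over all genes -0.01 in QKO and 0.01 in TKO. Fold changes on the log2 scale were taken on log2(RPKM + 1), which understates changes of low genes, and an adjusted p under 0.05 counted as passing. QKO and TKO were set against the same 2 WT libraries, so their values stand side by side and are not independent. In a fit of the 6 day 0 libraries alone, Igf2r, Peg10 and Inpp5f no longer passed in either mutant, nor Peg3, Copg2, Ppp1r9a, Peg12 and Ube3a in QKO (adjusted p of 0.0538 to 0.236).

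**Figure D2:**
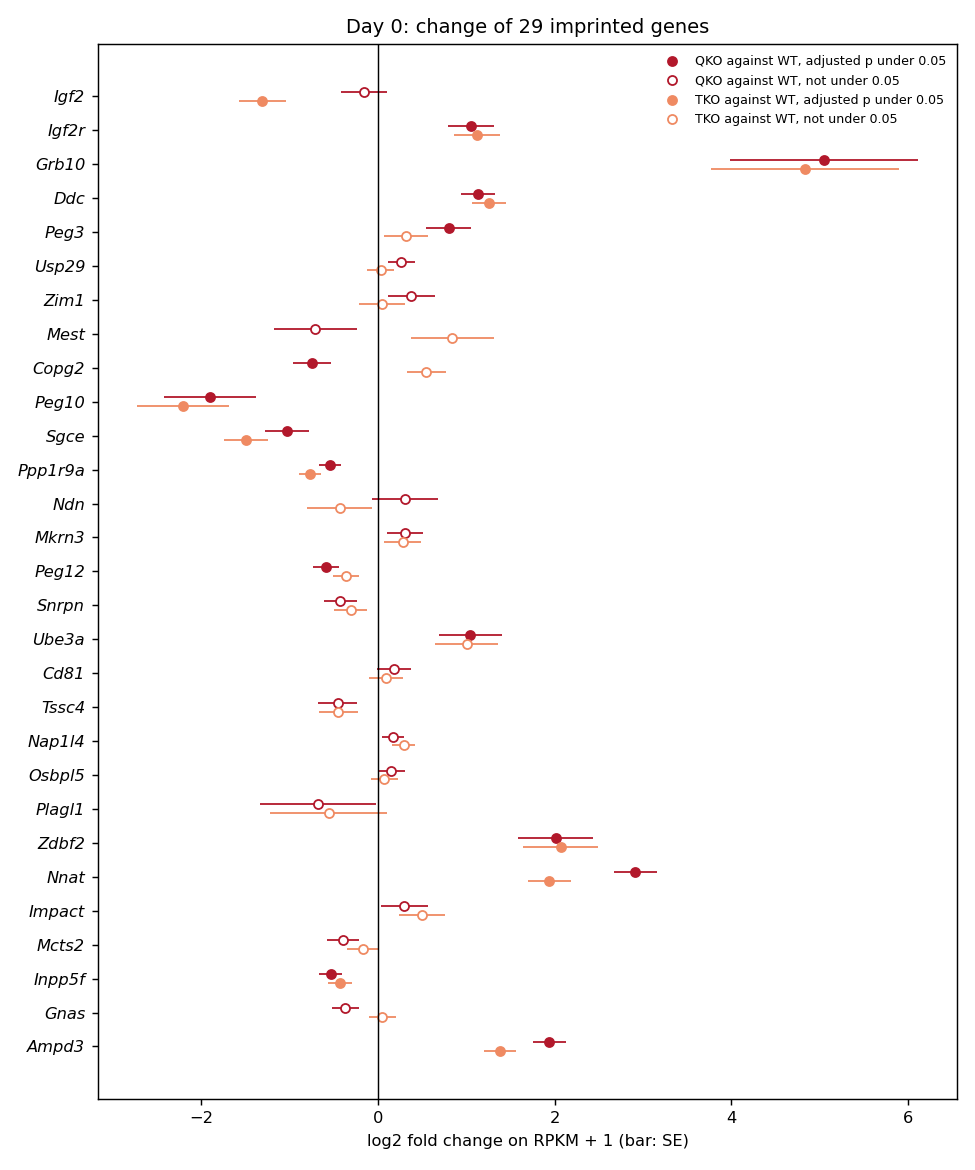
Log2 fold change at day 0 of the 29 tested imprinted genes other than Asb4, on log2(RPKM + 1), for QKO against WT and TKO against WT, with bars of 1 SE and filled points for an adjusted p under 0.05. Grb10 lies farthest to the right in both comparisons (5.05 in QKO, 4.84 in TKO), and Peg10 is the lowest in both (-1.90 in QKO, -2.20 in TKO).

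Grb10 (chr11:11930508-12038683, minus strand), the adaptor protein that restrains signalling from insulin and IGF1 receptors and is maternally expressed in most tissues, differed most. Day 0 values were 52.6 and 84.9 RPKM in QKO, 67.9 and 48.7 RPKM in TKO, and 1.61 and 0.603 RPKM in WT. Day 1 values were 119 and 114 RPKM in QKO, 93.9 and 61.5 in TKO, and 0.758 and 0.821 in WT. Every mutant library was thus far above every WT library on these days, and the WT values rested on 187 to 507 recovered reads. The mean at day 0 was 68.7 ± 22.8 RPKM in QKO and 58.3 ± 13.6 in TKO, against 1.11 ± 0.713 in WT (SD, n = 2 each), which is 62-fold and 52.6-fold. The log2 fold change was 5.05 in QKO (SE 1.06, adjusted p = 0.00317) and 4.84 in TKO (SE 1.06, adjusted p = 0.00541). Without WT day 0 replicate 2 it was 4.70 in QKO (adjusted p = 0.0504) and 4.48 in TKO (adjusted p = 0.0845), and without replicate 1 it was 5.40 in QKO and 5.19 in TKO. On day 2, QKO had 89.8 and 99.3 RPKM, TKO 81.1 and 49.7 RPKM, and the libraries labelled WT 1.44 and 94.4 RPKM. The first of these WT libraries was like WT on the other days (364 reads) and the second like the mutants (24206 reads).

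**Figure D3:**
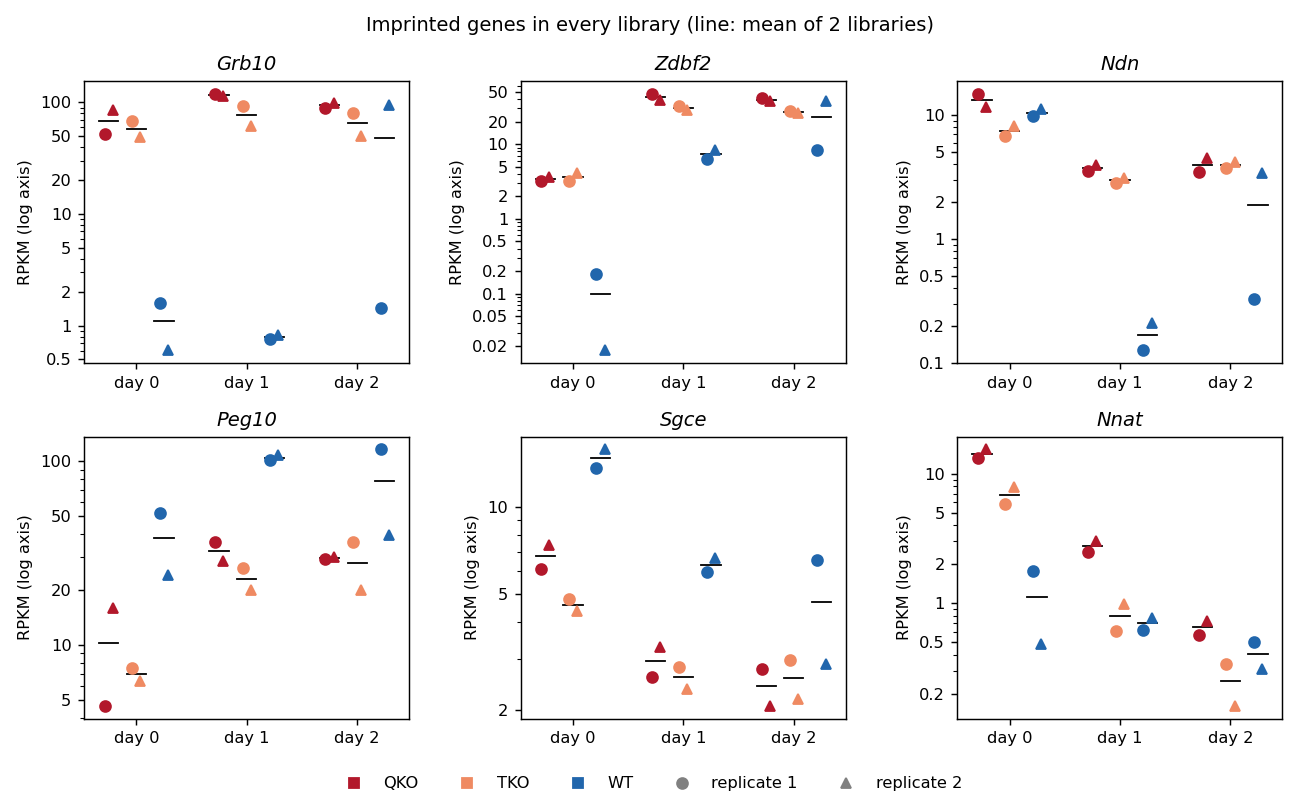
RPKM on a log axis in each library for Grb10, Zdbf2, Ndn, Peg10, Sgce and Nnat by day, with QKO, TKO and WT from left to right and 1 point per library. The WT day 2 points are split for Grb10 (1.44 and 94.4 RPKM), Zdbf2 (8.42 and 37.6) and Ndn (0.331 and 3.43), with the higher point at the level of the mutants.

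Ddc, next to Grb10 and paternally expressed in heart, encodes the decarboxylase that makes dopamine and serotonin. It was at 7.56 and 5.25 RPKM in QKO, 7.16 and 6.82 in TKO and 2.53 and 2.16 in WT at day 0. The groups did not overlap, and Ddc rose 2.73-fold in QKO (log2 1.13, SE 0.19, adjusted p = 0.000914) and 2.98-fold in TKO (log2 1.26, SE 0.19, adjusted p = 0.000446). With 1 WT day 0 library left out the log2 value was 1.05 to 1.21 in QKO and 1.18 to 1.34 in TKO, and both calls held. At day 1 it was at 16.2 and 11.4 RPKM in QKO, 17.1 and 16.0 in TKO and 21.4 and 15.6 in WT, where neither mutant passed. The ratio of Grb10 to Ddc was 3.14 to 16.2 in the 12 mutant libraries and 0.0354 to 6.40 in WT, with 6.40 in WT day 2 replicate 2.

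Zdbf2 (chr1:63273265-63314576), a zinc finger gene expressed from the paternal copy, was nearly silent in WT at day 0. It had 3.22 and 3.64 RPKM in QKO, 3.19 and 4.07 in TKO, and 0.182 and 0.0174 in WT, the last from 148 and 14 reads. It was 34.4-fold higher in QKO (log2 2.01, SE 0.42, adjusted p = 0.0032) and 36.4-fold higher in TKO (log2 2.07, SE 0.42, adjusted p = 0.00351). Leaving out 1 WT day 0 library gave log2 values of 1.90 to 2.12 in QKO and 1.96 to 2.18 in TKO, with the calls kept. Zdbf2 then climbed in all genotypes. Day 1 values were 47.1 and 38.7 RPKM in QKO, 32.6 and 28.2 in TKO and 6.32 and 8.37 in WT, and day 2 values 41.1 and 37.7 in QKO, 28.0 and 26.2 in TKO and 8.42 and 37.6 in WT. The 2 WT libraries of day 2 again differed, the first at the WT level of day 1 and the second among the mutants.

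Nnat, which lies in an intron of Blcap and encodes the membrane proteolipid neuronatin, separated all 3 genotypes at day 0. It was at 13.2 and 15.4 RPKM in QKO, 5.83 and 7.84 RPKM in TKO and 1.77 and 0.480 RPKM in WT. It rose 12.7-fold in QKO (log2 2.91, SE 0.24, adjusted p = 2.76e-06) and 6.07-fold in TKO (log2 1.94, SE 0.24, adjusted p = 7.53e-05). Both calls held without 1 WT library, at 2.46 to 3.36 in QKO and 1.49 to 2.39 in TKO. Nnat was also 2.09-fold higher in QKO than in TKO (log2 0.97, SE 0.24, adjusted p = 0.0494), but that call was lost in 16 of 18 fits that each left out 1 library, with adjusted p of 0.0059 to 0.311, and also with a pseudocount of 0.1, with no filter on low values, with voom (limma's count model, on the recovered reads), with the replicate number as a block, without the trend with gene length and in the fit of day 0 alone. On day 1 it had 2.47 and 3.01 RPKM in QKO, 0.608 and 0.985 in TKO and 0.625 and 0.769 in WT, and on day 2 it was at or under 0.735 RPKM everywhere. Blcap, the host gene on the other strand, shares no exon bases with Nnat and was at 19.8 and 20.6 RPKM in QKO, 12.9 and 13.9 in TKO and 12.7 and 11.7 in WT at day 0.

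Ampd3, an AMP deaminase that is maternally expressed in placenta, behaved likewise. It had 26.04 and 19.5 RPKM in QKO, 13.9 and 16.2 in TKO and 5.61 and 4.71 in WT at day 0, without overlap. That was 4.41-fold in QKO (log2 1.94, SE 0.19, adjusted p = 9.9e-06) and 2.92-fold in TKO (log2 1.38, SE 0.19, adjusted p = 0.000142). Both calls held without 1 WT library (1.83 to 2.04 in QKO, 1.28 to 1.49 in TKO). Later it lay between 3.46 and 5.73 RPKM in all 12 libraries. Ampd3 shares 195 exon bases with Rnf141 on the other strand, and whether the counting used strand is not given in the sources used here. Inpp5f, a phosphoinositide phosphatase, was slightly lower than in WT, with 5.42 and 6.31 RPKM in QKO, 6.83 and 5.93 in TKO and 9.24 and 8.56 in WT at day 0. The log2 fold change was -0.53 in QKO (SE 0.13, adjusted p = 0.00812) and -0.42 in TKO (SE 0.13, adjusted p = 0.0343). The TKO call ended without any 1 of the 4 libraries compared, with values of -0.34 to -0.51 and adjusted p of 0.0572 to 0.228, and the QKO call ended without QKO replicate 1 (-0.44, adjusted p = 0.0578), while without 1 WT library it held at -0.48 and -0.58. The TKO call also ended with a pseudocount of 0.1 (-0.48, adjusted p = 0.0602).

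Peg10 and Sgce, the paternally expressed pair of the Peg10-Sgce cluster, were lower in both mutants at day 0. Peg10 (chr6:4747306-4760517), a retrotransposon-derived gene required for placenta, had 4.68 and 15.8 RPKM in QKO, 7.46 and 6.40 RPKM in TKO and 52.1 and 24.0 RPKM in WT. It fell by 1.90 on the log2 scale in QKO (SE 0.52, adjusted p = 0.0129) and by 2.20 in TKO (SE 0.52, adjusted p = 0.00839). The QKO value was -1.12 without QKO replicate 1 (adjusted p = 0.145) and -1.36 without WT replicate 1 (adjusted p = 0.0832), and the TKO value -2.11 without TKO replicate 2 (adjusted p = 0.0679). The QKO value without WT replicate 2 was -2.44, and the TKO value was -1.66 without WT replicate 1 and -2.75 without WT replicate 2. Sgce (chr6:4674350-4747207), the epsilon-sarcoglycan of the muscle membrane complex, starts 99 bases from Peg10 on the other strand. It had 6.08 and 7.39 RPKM in QKO, 4.82 and 4.36 in TKO and 13.6 and 15.7 in WT, and fell by 1.02 in QKO (SE 0.25, adjusted p = 0.00725) and by 1.49 in TKO (SE 0.25, adjusted p = 0.000855). The QKO call on Sgce ended without QKO replicate 1 (-0.90, adjusted p = 0.0533) or WT replicate 2 (-0.92, adjusted p = 0.0511) and held without WT replicate 1 (-1.12), and the TKO call held at -1.39 and -1.58 without 1 WT library.

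By their values, the genes of the set in this cluster were all lower than WT in both mutants at day 0, the maternally expressed ones included. Of the latter, Asb4 is a substrate receptor of ubiquitin ligases. It had 0.499 and 0.602 RPKM in QKO, 0.342 and 0.274 in TKO and 4.08 and 4.01 in WT at day 0. The 2 WT libraries were the only ones of the 18 above 1 RPKM, so Asb4 is given with no test. Ppp1r9a, the actin-binding neurabin, had 0.522 and 0.716 RPKM in QKO, 0.404 and 0.353 in TKO and 1.45 and 1.24 in WT, and fell by 0.54 in QKO (SE 0.12, adjusted p = 0.00471) and by 0.77 in TKO (SE 0.12, adjusted p = 0.000528). Both of its calls held without 1 WT library, at -0.47 and -0.60 in QKO and -0.70 and -0.83 in TKO. At days 1 and 2 Asb4 ranged over 0.153 to 0.953 RPKM and Ppp1r9a over 0.901 to 1.77 RPKM. Outside the 40 genes, others reported as imprinted in the same cluster were higher in the mutants at day 0 or did not pass. Pon3, a paraoxonase, had 7.13 and 8.82 RPKM in QKO, 8.31 and 6.26 in TKO and 3.90 and 2.41 in WT (log2 1.13 in QKO, adjusted p = 0.000858, and 1.01 in TKO, adjusted p = 0.00215). Casd1, a sialic acid O-acetyltransferase, had 6.13 and 2.59 RPKM in QKO, 2.42 and 4.02 in TKO and 1.76 and 0.751 in WT, and passed in QKO (log2 1.20, adjusted p = 0.0102) but not in TKO (0.91, adjusted p = 0.0504). Tfpi2, a protease inhibitor, had 1.26 and 0.253 RPKM in QKO, 0.968 and 1.91 in TKO and 0.0215 and 0 in WT, and passed in TKO (log2 1.24, adjusted p = 0.00739) but not in QKO (0.74, adjusted p = 0.0605). Pon2, another paraoxonase, passed in neither (log2 -0.05 in QKO, 0.06 in TKO), and Calcr did not exceed 0.0257 RPKM.

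At day 1 the WT libraries were again the highest for Peg10 and Sgce. Peg10 at day 1 was at 36.5 and 28.5 RPKM in QKO, 26.2 and 19.8 in TKO and 101 and 108 in WT. Sgce at day 1 was at 2.59 and 3.29 RPKM in QKO, 2.81 and 2.36 in TKO and 5.97 and 6.65 in WT. No mutant library overlapped WT on that day for either gene, but neither gene passed: adjusted p was 0.102 in QKO and 0.0526 in TKO for Peg10, and 0.0713 in QKO and 0.0527 in TKO for Sgce. Under some alternatives they did pass as lower at day 1. In TKO both passed with median-ratio scaling (Peg10 -2.19, adjusted p = 0.0418, and Sgce -1.08, adjusted p = 0.0368) and with a length trend removed (Peg10 -2.18, adjusted p = 0.0249, and Sgce -1.06, adjusted p = 0.039), and Sgce with a pseudocount of 0.1 (-1.26, adjusted p = 0.0496). In QKO Peg10 passed with the length trend removed (-1.81, adjusted p = 0.0479). With either WT day 2 library left out, the first as well as the second, both genes passed as lower in both mutants. The log2 values were then -1.66 in QKO and -2.14 in TKO for Peg10, and -0.90 in QKO and -1.03 in TKO for Sgce. Peg10 in TKO also passed with either QKO day 0 library left out. Day 2 Peg10 was at 29.5 and 30.1 RPKM in QKO, 36.1 and 19.9 in TKO and 116 and 39.4 in WT, and day 2 Sgce at 2.76 and 2.06 in QKO, 2.95 and 2.18 in TKO and 6.55 and 2.86 in WT. The ratio of Peg10 to Sgce was 0.769 to 3.82 on day 0, 8.40 to 14.6 in mutant libraries of days 1 and 2, and 13.8 to 17.7 in WT libraries of those days.

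**Figure D4:**
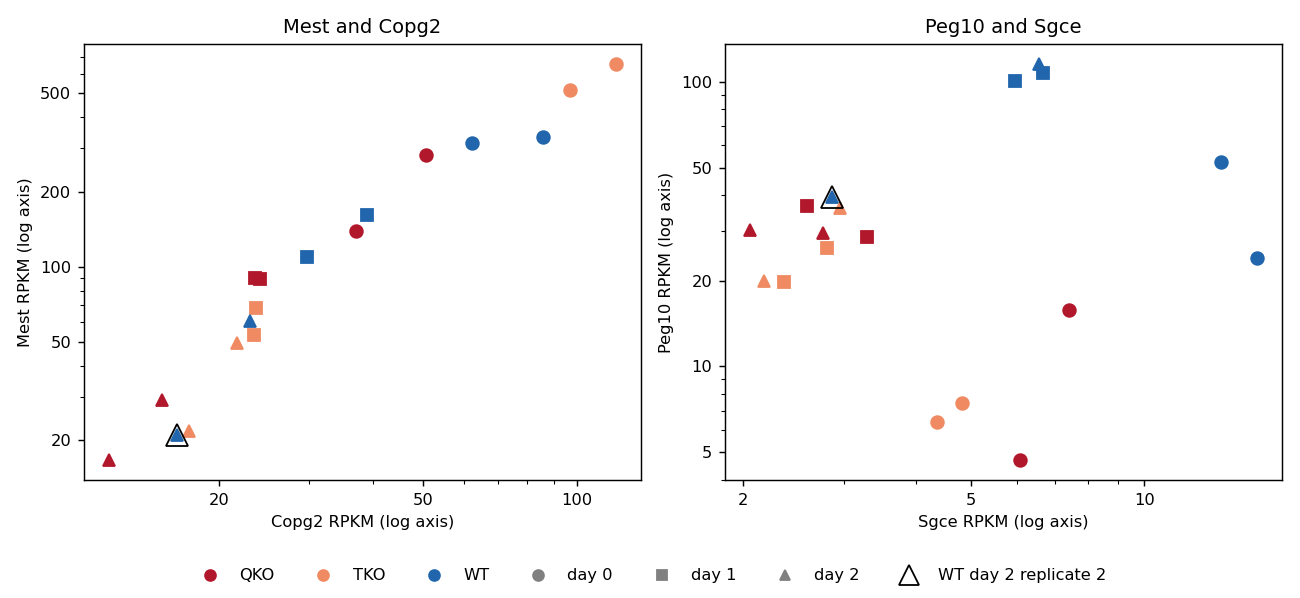
RPKM of neighbouring imprinted genes plotted against each other on log axes, Mest with Copg2 and Peg10 with Sgce, with 1 point per library. The Peg10 to Sgce ratio is 0.769 to 3.82 at day 0 and 8.40 to 17.7 later, so the day 0 points sit apart from the rest, while Mest and Copg2 lie along 1 band.

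The Prader-Willi/Angelman cluster, whose paternally expressed genes are lost in Prader-Willi syndrome, held a gene with a difference at day 1. Ndn (chr7:62346569-62350262) encodes necdin, a growth suppressor that supports myoblast survival and differentiation. At day 0 it was at 14.8 and 11.6 RPKM in QKO, 6.80 and 8.21 in TKO and 9.76 and 11.1 in WT. At day 1 the mutants had 3.56 and 3.98 RPKM in QKO and 2.84 and 3.11 in TKO, against 0.127 and 0.212 in WT, which were 16 and 19 reads. Day 2 values were 3.44 and 4.51 RPKM in QKO, 3.76 and 4.19 in TKO and 0.331 and 3.43 in WT, from 27 and 284 reads in WT. Of the 12 later libraries, the low ones were thus those labelled WT, except WT day 2 replicate 2.

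Ube3a, the ubiquitin ligase of Angelman syndrome, is maternally expressed in neurons and read from both copies in other tissues. It had 16.8 and 22.03 RPKM in QKO, 18.6 and 18.8 in TKO and 16.8 and 4.40 in WT at day 0. It passed in QKO (log2 1.05, SE 0.36, adjusted p = 0.0363), but the value was 0.18 without WT replicate 2 (adjusted p = 0.411), the library with 4.40 RPKM, and 1.91 without replicate 1. It was also lost without QKO replicate 1 (adjusted p = 0.0628) or replicate 2 (adjusted p = 0.179) and with no filter on low values (adjusted p = 0.0643). In the 12 later libraries Ube3a lay at 19.8 to 27.6 RPKM. Peg12, an intronless gene of the cluster, had 9.02 and 9.06 RPKM in QKO, 11.2 and 10.4 in TKO and 14.1 and 14.0 in WT at day 0, and 0.742 to 1.37 RPKM later. It was lower in QKO than in WT at day 0 (log2 -0.59, SE 0.15, adjusted p = 0.00823), also without 1 WT library (-0.58 and -0.59), but not with a pseudocount of 0.1 (-0.63, adjusted p = 0.0521) or in the fit of day 0 alone (adjusted p = 0.0767). Snrpn, the small nuclear ribonucleoprotein SmN, had 3.38 and 2.95 RPKM in QKO, 3.12 and 3.94 in TKO and 3.41 and 6.05 in WT at day 0 and did not pass between genotypes on any day. It shares 216 exon bases with Snurf on the same strand, so reads of these genes may be split. Mkrn3, a RING finger gene, ranged over 1.12 to 2.81 RPKM.

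Igf2, the growth factor that drives myoblast differentiation, was the most abundant imprinted gene. Its control region, deleted on the haploid side in all mice, acts as an insulator that keeps Igf2 from its enhancers on the maternal copy and is methylated on the paternal copy. At day 0 it had 501 and 540 RPKM in QKO, 188 and 291 RPKM in TKO and 518 and 647 RPKM in WT. The TKO libraries were the lowest, at 0.411 times WT in the mean (log2 -1.30, SE 0.26, adjusted p = 0.00333, and -1.14 and -1.46 without 1 WT library). QKO was 2.17-fold above TKO (log2 1.15, SE 0.26, adjusted p = 0.0363), a call that 14 of 18 fits without 1 library did not keep (adjusted p 0.0128 to 0.298), and that ended with a pseudocount of 0.1 (adjusted p = 0.0555). At day 1 Igf2 was at 1129 and 1300.1 RPKM in QKO, 990.3 and 1006 in TKO and 815 and 851 in WT. At day 2 it was at 864 and 1093 RPKM in QKO, 700.4 and 758 in TKO and 388 and 724 in WT. The difference of TKO from WT changed between days and was 1.76 higher on the log2 scale at day 2 than at day 0 (adjusted p = 0.00988), with 1.31 to 2.21 and the call kept without 1 WT library of these days.

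Igf2r, the maternally expressed receptor that clears IGF2, had 34.8 and 48.1 RPKM in QKO, 40.5 and 45.5 in TKO and 28.8 and 12.6 in WT at day 0. It was higher in QKO (log2 1.06, SE 0.26, adjusted p = 0.00739) and in TKO (log2 1.13, SE 0.26, adjusted p = 0.00737). The size depended on WT: it was 0.49 in QKO and 0.56 in TKO without WT replicate 2, and 1.63 in QKO and 1.69 in TKO without WT replicate 1. The calls ended without QKO replicate 2 (0.83, adjusted p = 0.0675) and without TKO replicate 2 (1.04, adjusted p = 0.07). A second Igf2r row in the table ranged from 0.345 to 20.3 RPKM and was not used. At day 1 Igf2r was at 57.1 and 59.6 RPKM in QKO, 41.1 and 44.9 in TKO and 34.4 and 37.2 in WT, while day 2 gave 45.3 and 44.3 RPKM in QKO, 36.0 and 36.6 in TKO and 40.8 and 43.6 in WT.

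Igf2 and Igf2r act in the IGF pathway, and 15 of 16 other genes listed for it were tested at day 0. In QKO 10 of 15 passed (66.7%, against 35.5% of all genes), 7 higher and 3 lower than WT. In TKO 8 passed (53.3%, against 23% of all genes), 4 higher and 4 lower. The medians were 0.77 in QKO and 0.48 in TKO. Igf2bp1, among the lower genes of both counts, passed the filter only through WT day 0 (at least 1.47 RPKM there, at most 0.816 elsewhere). It thus had to differ there, and both shares include it. Igf2bp3, an RNA-binding protein that binds Igf2 mRNA, was at 0.504 and 0.863 RPKM in QKO, 0.79 and 0.448 in TKO and 25.5 and 19.1 in WT. Igfbp4, a secreted IGF-binding protein, was at 132 and 73.0 RPKM in QKO, 47.6 and 58.3 in TKO and 12.2 and 9.12 in WT. Grb14, the relative of Grb10 that also binds the insulin receptor, ran the other way to Grb10, with 1.67 and 1.69 RPKM in QKO, 0.833 and 0.767 in TKO and 8.34 and 8.95 in WT. Grb14 had a log2 fold change of -1.85 in QKO and -2.42 in TKO.

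Mest, a hydrolase-like gene expressed from the paternal copy, was high and variable at day 0. It had 140 and 281 RPKM in QKO, 515 and 658 in TKO and 316 and 333 in WT, and passed in no genotype comparison, with log2 -1.55 between QKO and TKO (SE 0.47, adjusted p = 0.094). Copg2, a coatomer subunit gene that runs into Mest from the other side and shares 912 exon bases with it, had 36.9 and 50.6 RPKM in QKO, 96.7 and 119 in TKO and 62.2 and 85.7 in WT. Copg2 was lower in QKO than in TKO (log2 -1.29, SE 0.22, adjusted p = 0.00707) and than in WT (log2 -0.74, SE 0.22, adjusted p = 0.0182). The first call ended without TKO replicate 2 (-1.14, adjusted p = 0.103) or QKO replicate 1 (-1.07, adjusted p = 0.111), the second without QKO replicate 1 (-0.52, adjusted p = 0.145) or WT replicate 2 (-0.52, adjusted p = 0.151), and was -0.97 without WT replicate 1. The ratio of Mest to Copg2 was 3.78 to 5.56 at day 0 and 1.24 to 4.16 later. Because the genes overlap at their ends and strand use is not given, reads of the shared stretch could count for either.

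QKO and TKO at day 0 differed in 3 of the 30 genes, Igf2 and Nnat (higher in QKO) and Copg2 (lower), where 2.76% of all genes passed. The median of the 29 genes other than Asb4 was 0.03, against -0.03 over all genes. The counts of such calls in other fits ranged from 0 to 4, and the fit of day 0 alone gave 0.

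Peg3, a zinc finger gene that marks adult stem cells, had 233 and 414 RPKM in QKO, 223 and 223 in TKO and 226 and 140 in WT at day 0. It passed in QKO (log2 0.80, SE 0.25, adjusted p = 0.0242), but the value was 1.21 without QKO replicate 1, 0.39 without QKO replicate 2 (adjusted p = 0.256) and 0.46 with WT replicate 2 left out (adjusted p = 0.226). It was 1.14 with WT replicate 1 left out. Day 1 Peg3 was at 199 and 229 RPKM in QKO, 120 and 128 in TKO and 109 and 136 in WT, and day 2 Peg3 at 142 and 170 in QKO, 122 and 119 in TKO and 125 and 134 in WT. Zim1, a maternally expressed zinc finger gene beside it, stayed in step: the ratio of Peg3 to Zim1 was 4.48 to 8.22 over all 18 libraries. Usp29, which starts 147 bases from Peg3 on the other strand and encodes a deubiquitinase, was far lower, at 0.457 to 1.52 RPKM. From day 0 to day 2 the group mean of Zim1 went from 43.5 to 24.0 RPKM in QKO, 32.3 to 20.8 in TKO and 31.6 to 20.4 in WT. That of Usp29 went from 1.36 to 0.6125 RPKM in QKO, 1.01 to 0.739 in TKO and 0.974 to 0.573 in WT. The change of the QKO difference from WT between these days passed for neither gene. Between day 2 and day 0 both genes passed in QKO, Zim1 at -0.76 and Usp29 at -0.56, and neither passed in TKO or WT. Both calls ended without QKO day 0 replicate 2 (Zim1 -0.25, adjusted p = 0.371, and Usp29 -0.46, adjusted p = 0.0545) or QKO day 2 replicate 1 (Zim1 -0.56, adjusted p = 0.173, and Usp29 -0.42, adjusted p = 0.08). Both also ended once the length trend was removed (Zim1 -0.37, Usp29 -0.27) and with quantile normalization (Zim1 -0.60, Usp29 -0.13), and Zim1 with median-ratio scaling (-0.41) and in the fit of QKO alone (adjusted p = 0.0628).

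On day 1 Grb10, Ndn and Zdbf2 were higher than WT in both mutants. No imprinted gene passed as lower in this fit, though Peg10 and Sgce did under alternatives, as given above, and in a fit of day 1 alone Copg2 also did in both mutants (-0.50 in QKO, -0.51 in TKO) and Mest in TKO (-1.13). In QKO 4 of 30 passed, all higher, where 2.76% of all genes passed (1.43% higher), and in TKO 3 passed, all higher, where 2.08% did (1.24% higher). The medians of the 29 genes other than Asb4 were 0.04 in QKO and 0.03 in TKO, against -0.0046 in QKO and 0.01 in TKO over all genes. Grb10 was 148-fold higher in QKO (log2 6.04, SE 1.06, adjusted p = 0.0117) and 98.4-fold in TKO (log2 5.43, SE 1.06, adjusted p = 0.0196). Ndn was 22.3-fold higher in QKO (log2 2.03, SE 0.37, adjusted p = 0.0125) and 17.6-fold in TKO (log2 1.77, SE 0.37, adjusted p = 0.0276). Zdbf2 was 5.84-fold higher in QKO (log2 2.40, SE 0.42, adjusted p = 0.012) and 4.14-fold in TKO (log2 1.92, SE 0.42, adjusted p = 0.0364), and Nnat 3.94-fold in QKO (log2 1.14, SE 0.24, adjusted p = 0.0251). Each of these calls ended when any 1 of its 4 compared libraries was left out, with adjusted p up to 0.226 (Zdbf2 in TKO, which ended in 14 of 18 such fits). The 3 TKO calls also ended with no filter on low values (adjusted p of 0.0524 to 0.082) and with voom (0.0567 to 0.0814), that on Zdbf2 with a pseudocount of 0.1 (0.0548), and that on Nnat in QKO with voom (0.0547). With 1 or the other WT day 0 library left out the counts at day 1 were 8 in QKO, with Igf2r (0.69), Peg3 (0.80) and Zim1 (0.99) higher and Sgce (-0.90) lower, and 5 in TKO, with Peg10 (-2.14) and Sgce (-1.03) lower. QKO and TKO did not differ in any of the 30 genes by limma at day 1, where 0.252% of all genes passed. At an unadjusted p under 0.05 there were 5, and with voom also 5, of which none passed at an adjusted p under 0.05.

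On day 2 no imprinted gene passed by limma in QKO against WT (0.345% of all genes passed), TKO against WT (0.109%) or QKO against TKO (0.74%). At an unadjusted p under 0.05 there were 10 in QKO against WT, 3 in TKO against WT and 2 in QKO against TKO. With voom these unadjusted counts were also 10, 3 and 2, and none passed at an adjusted p under 0.05. WT day 2 had the most imprinted genes at least 2-fold apart between its libraries on RPKM + 1, 6 of 30, against 3.54% of all genes. They were Grb10 (39.1 times higher in the second library), Zdbf2 (4.10), Ndn (3.33), Mest (0.358), Peg10 (0.346) and Plagl1 (0.214). The other groups had 0 to 4 such imprinted genes, and over all genes WT day 0 had more (7.85%). The median absolute log2 difference of the 30 genes was 0.238 in WT day 2. It was larger in WT day 0 (0.329), QKO day 0 (0.286) and QKO day 2 (0.269). WT day 2 replicate 2 was singled out above because it lay near the mutants. A fit without it is thus no independent test of the genes that split the pair, and it rests on 1 WT library. In that fit Grb10 (log2 5.29 in QKO and 4.72 in TKO), Ndn (1.89 in QKO and 1.90 in TKO) and Zdbf2 (2.10 in QKO and 1.57 in TKO) passed as higher. Sgce passed as lower (-1.15 in QKO and -1.09 in TKO), and Igf2 as higher in QKO (1.32). No imprinted gene passed between the mutants. With WT day 2 replicate 1 left out instead, none passed against WT. With 1 or the other WT day 0 library left out, Gnas also passed on day 2, lower in QKO than in WT (log2 -0.45, adjusted p = 0.0401 and 0.0407) and than in TKO (-0.43, adjusted p = 0.037 and 0.0374), and Nnat at day 1 between QKO and TKO (1.06, adjusted p = 0.0122).

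The differences from WT were also compared between days, as the mutant effect at a later day less that at day 0. Asb4 was left out here. At day 1, 5 of the 29 genes passed in QKO (11% of all genes) and 7 in TKO (9.34% of all genes), and at day 2, 3 passed in QKO (12.7% of all genes) and 5 in TKO (8.52% of all genes). Ddc, Nnat and Ampd3 passed in each of these comparisons, all of which share the WT day 0 libraries.

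The position gene Hoxd8 was split between libraries in the same way as Grb10 on days 1 and 2. It had 0.0243 and 0.0427 RPKM in WT at day 1 and 0.113 and 8.79 in WT at day 2, and 4.66 to 12.6 RPKM in the other 14 libraries, WT day 0 included. Its part in the Grb10, Zdbf2 and Ndn differences was not tested.

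Between day 2 and day 0 most of the genes tested passed, and the counts of imprinted genes are given beside that share. They were 20 of 30 in QKO (66.7%, 8 higher and 12 lower, where 60.2% of all genes passed), 18 in TKO (60%, 9 higher and 9 lower, where 59.3% of all genes passed) and 20 in WT (66.7%, 11 higher and 9 lower, where 66.7% of all genes passed). Without Asb4, which is in the WT count, 19 of 29 passed in WT. The median log2 fold change of these 29 was 0.03 in QKO, -0.19 in TKO and -0.11 in WT, against -0.31 in QKO, -0.21 in TKO and -0.24 in WT over all genes, a shift that depends on the scaling. With median-ratio scaling, which brought the median of all genes to -0.0226 to -0.0079, the split was 11 higher and 11 lower in QKO, 12 and 8 in TKO and 13 and 8 in WT, and with quantile normalization 12 and 10 for QKO, 11 and 8 for TKO and 13 and 8 for WT. The share of all calls that were higher was 28.7% in QKO, 35.6% in TKO and 37.4% in WT as deposited and 48.6% in QKO, 49.1% in TKO and 48.6% in WT after median-ratio scaling.

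**Figure D5:**
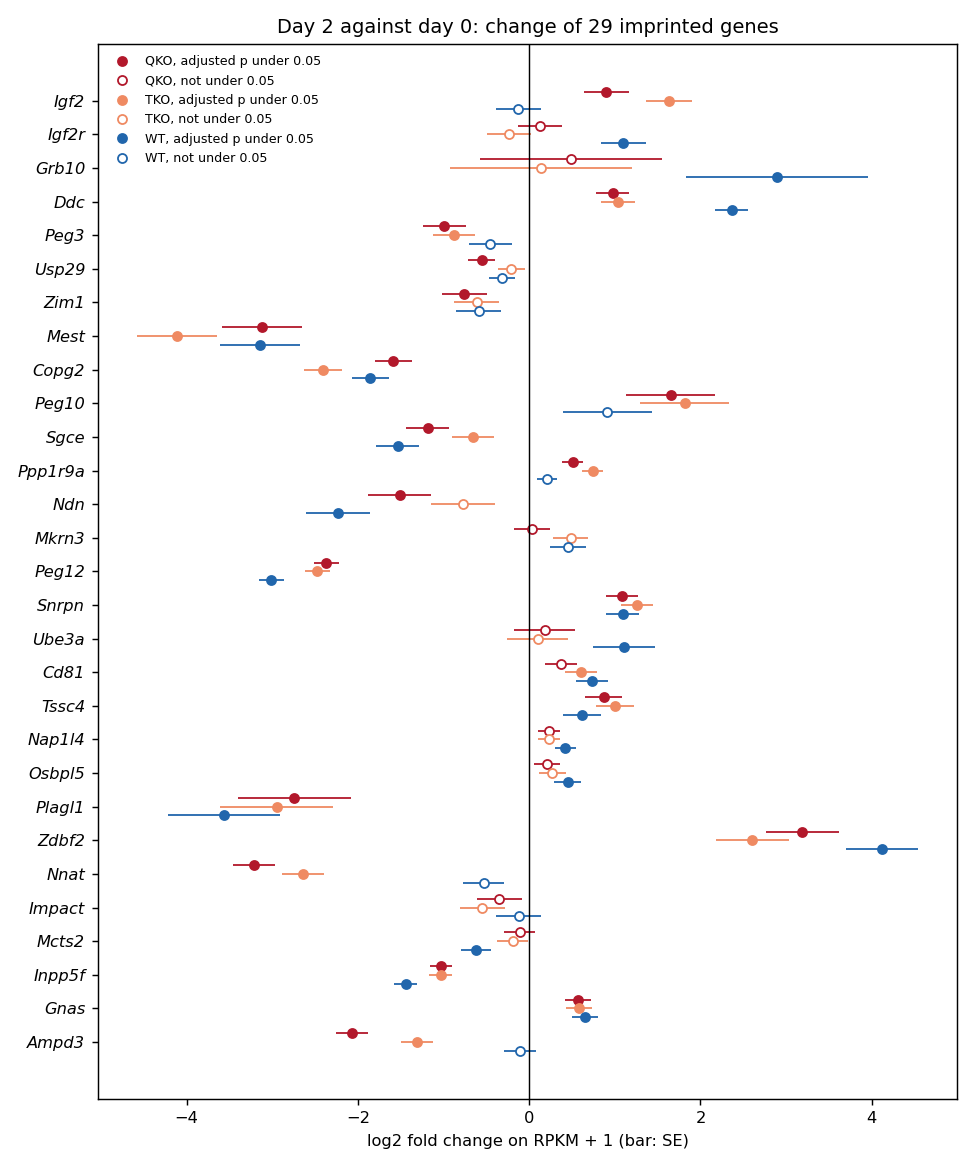
Log2 fold change of day 2 over day 0 for the 29 tested imprinted genes other than Asb4 in QKO, TKO and WT, on log2(RPKM + 1), with bars of 1 SE and filled points for an adjusted p under 0.05. Mest, Plagl1 and Peg12 lie below -2.3 in all 3 genotypes and Zdbf2 lies above 2.6 in all 3.

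Zdbf2 rose in all genotypes, 11.49-fold in QKO (log2 3.19), 7.46-fold in TKO (log2 2.61) and in WT by 4.12 on the log2 scale (SE 0.42 each, adjusted p at most 0.000141). The WT value was 3.10 without WT day 2 replicate 2, 5.14 without day 2 replicate 1 and 4.01 and 4.23 without 1 WT day 0 library. The WT day 2 libraries at 8.42 and 37.6 RPKM both lay above the WT day 0 libraries. Snrpn rose in all genotypes as well, to 7.83 and 7.80 RPKM in QKO, 10.4 and 9.22 in TKO and 10.5 and 11.3 in WT at day 2, which was 2.47-fold over day 0 in QKO, 2.78-fold in TKO and 2.30-fold in WT (log2 1.09 in WT, and 0.75 to 1.43 without 1 WT library). Ddc rose by 0.97 in QKO, 1.04 in TKO and 2.37 in WT on the log2 scale (2.24 to 2.49 without 1 WT library). The mutants did not pass against WT after day 0, and the change in that difference, day 2 less day 0, was -1.39 in QKO (adjusted p = 0.006) and -1.33 in TKO (adjusted p = 0.00846), and both held without 1 WT library (-1.26 to -1.52 in QKO, -1.20 to -1.46 in TKO). Gnas rose by 0.57 in QKO, 0.58 in TKO and 0.65 in WT (0.43 to 0.88 in WT without 1 WT library, 0.43 being without WT day 0 replicate 1, and 0.45 with adjusted p = 0.0511 in QKO without QKO day 0 replicate 2), with 283 and 304 RPKM in QKO, 407 and 383 in TKO and 414 and 388 in WT at day 2, against 214 and 181 in QKO, 261 and 266 in TKO and 217 and 298 in WT at day 0. A gene on the other strand, Gm20721, shares 1469 exon bases with Gnas. Tssc4, a gene of the Kcnq1 cluster linked to assembly of spliceosomal particles, ranged over 12.7 to 33.0 RPKM and rose by 0.87 in QKO, 1.01 in TKO and 0.62 in WT, the WT call being lost without WT day 0 replicate 1 (0.20, adjusted p = 0.317) and at 1.04 without replicate 2, and also lost without WT day 2 replicate 1 (0.67, adjusted p = 0.0508) or replicate 2 (0.56, adjusted p = 0.0962).

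Mest fell in all genotypes. Its day 2 values were 28.9 and 16.6 RPKM in QKO, 49.2 and 21.7 in TKO and 60.6 and 21.0 in WT, with a log2 fold change over day 0 of -3.12 in QKO, -4.11 in TKO and -3.14 in WT (SE 0.47 each), the last at -2.40 without WT day 2 replicate 2, -3.89 without replicate 1 and -3.11 and -3.18 without 1 WT day 0 library. Copg2 fell with it, to 15.5 and 12.2 RPKM in QKO, 21.6 and 17.5 in TKO and 23.0 and 16.5 in WT at day 2 (log2 -1.59 in QKO, -2.41 in TKO and -1.85 in WT, with -1.63 to -2.08 in WT without 1 WT library). Plagl1, a zinc finger transcription factor that regulates other imprinted genes, was at 6.82 and 5.46 RPKM in QKO, 9.89 and 3.12 in TKO and 12.9 and 1.98 in WT at day 2. At day 0 it was at 35.8 and 60.2 RPKM in QKO, 56.7 and 45.2 in TKO and 130 and 43.1 in WT, a log2 fold change of -2.74 in QKO, -2.95 in TKO and -3.56 in WT (SE 0.66 each). The WT value of Plagl1 was -2.45 without WT day 2 replicate 2, -4.67 without day 2 replicate 1, -2.78 without day 0 replicate 1 and -4.34 without day 0 replicate 2, and it passed in each. The libraries within a group differed widely for Plagl1, and it passed between genotypes on no day.

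Peg12 fell by 2.37 in QKO, 2.47 in TKO and 3.01 in WT on the log2 scale (SE 0.15 each), with -3.00 to -3.02 in WT without 1 WT library. Inpp5f fell by 1.03 in both mutants and by 1.44 in WT (-1.39 to -1.49 without 1 WT library), to 1.80 to 2.78 RPKM over the libraries of days 1 and 2. Sgce fell by 1.18 in QKO, 0.66 in TKO and 1.53 in WT (-1.05 without WT day 2 replicate 2, -2.02 without replicate 1 and -1.44 and -1.63 without 1 WT day 0 library). The TKO value of Sgce did not pass under median-ratio scaling (-0.47, adjusted p = 0.125) or quantile normalization (-0.26, adjusted p = 0.403), with the length trend removed (-0.45), with no filter (adjusted p = 0.0577) or with voom (adjusted p = 0.058), nor without TKO day 0 replicate 1 (-0.60, adjusted p = 0.147) or replicate 2 (-0.71, adjusted p = 0.0795) or TKO day 2 replicate 2 (-0.50, adjusted p = 0.205). Ndn fell by 1.51 in QKO (adjusted p = 0.003) and by 2.23 in WT (adjusted p = 0.000121, with -1.37 without WT day 2 replicate 1, -3.10 without day 2 replicate 2 and -2.15 and -2.32 without 1 WT day 0 library), and had a log2 fold change of -0.77 in TKO (adjusted p = 0.088).

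Several genes passed in the mutants alone between day 2 and day 0. Nnat fell by 3.21 in QKO and by 2.64 in TKO and Ampd3 by 2.07 in QKO and by 1.31 in TKO, where WT had -0.53 for Nnat (adjusted p = 0.067) and -0.11 for Ampd3 (adjusted p = 0.632). The change of the difference from WT between these days was tested and passed: it was -2.68 in QKO (adjusted p = 0.000354) and -2.11 in TKO (adjusted p = 0.00176) for Nnat, and -1.96 in QKO (adjusted p = 0.000521) and -1.21 in TKO (adjusted p = 0.0116) for Ampd3. Without 1 WT library of day 0 or 2 these calls held, at -2.23 to -3.13 in QKO and -1.66 to -2.56 in TKO for Nnat and at -1.77 to -2.15 in QKO and -1.02 to -1.39 in TKO for Ampd3. The last call ended without TKO day 0 replicate 2 (-1.11, adjusted p = 0.068) or TKO day 2 replicate 2 (-1.14, adjusted p = 0.055). Igf2 rose 1.88-fold in QKO (log2 0.90, 0.73 with adjusted p = 0.0791 without QKO day 2 replicate 2) and 3.04-fold in TKO (log2 1.63), with -0.13 in WT (adjusted p = 0.688). Peg10 rose by 1.66 in QKO and 1.82 in TKO, with 0.91 in WT (adjusted p = 0.135). The QKO value of Peg10 was 0.87 without QKO day 0 replicate 1 (adjusted p = 0.195) and lost its call at adjusted p of 0.0546 and 0.0547 without a QKO day 2 library, and the TKO value was 1.40 without TKO day 2 replicate 1 (adjusted p = 0.0834). Peg3 fell by 0.99 in QKO (-0.58 without QKO day 0 replicate 2, adjusted p = 0.0621) and 0.88 in TKO, with -0.46 in WT (adjusted p = 0.123). Ppp1r9a rose by 0.51 in QKO and 0.74 in TKO, with 0.21 in WT (adjusted p = 0.141). For Peg10, Peg3 and Ppp1r9a in both mutants and for Igf2 in QKO, the change of the difference from WT between day 2 and day 0 did not pass, and for Igf2 in TKO it did, as given above.

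A further set passed in WT alone between these days. For Grb10 and Ube3a in both mutants and for Igf2r in QKO, the change of the difference from WT between day 2 and day 0 did not pass. For Igf2r in TKO it did (-1.34), though most fits without 1 library lost that call. Grb10 passed in WT with a log2 fold change of 2.90 (SE 1.06, adjusted p = 0.0271), which was 0.25 without WT day 2 replicate 2 (adjusted p = 0.575) and 5.54 without replicate 1. It was also lost without WT day 0 replicate 1 (3.25, adjusted p = 0.0752) or replicate 2 (2.55, adjusted p = 0.157). Igf2r rose by 1.10 in WT (1.67 without WT day 0 replicate 1, 0.53 without replicate 2, and 1.06 and 1.15 without 1 WT day 2 library). Ube3a passed in WT at 1.11, but was 0.25 without WT day 0 replicate 2 (adjusted p = 0.162), 1.97 without replicate 1, 1.12 without WT day 2 replicate 2, and also lost its call without WT day 2 replicate 1 (1.09, adjusted p = 0.0513). In a fit of WT alone, Grb10, Ube3a, Tssc4, Nap1l4, Osbpl5, Mcts2 and Gnas no longer passed (adjusted p of 0.0535 to 0.151).

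The remaining genes passed between genotypes in no comparison. Cd81, the most abundant gene of the Kcnq1 cluster, had 168 to 405 RPKM over the 18 libraries with day 2 over day 0 at 0.37 in QKO (adjusted p = 0.101), 0.60 in TKO and 0.73 in WT. The WT value was 0.56 to 0.90 without 1 WT library, and the TKO call ended without replicate 1 of TKO day 0 (adjusted p = 0.0955) or day 2 (adjusted p = 0.0885). In the same cluster Nap1l4, a histone chaperone, ranged over 70.9 to 114 RPKM and Osbpl5, an oxysterol-binding relative, over 20.1 to 35.6 RPKM. Impact, a regulator of GCN2, was at 14.6 to 35.2 RPKM and Mcts2, a retrocopy of Mcts1 within an intron of H13 whose reads may be shared with its parent, at 8.22 to 17.8 RPKM. In WT, day 2 over day 0 was 0.42 for Nap1l4 (0.29 without WT day 2 replicate 2, adjusted p = 0.109, and 0.31 to 0.56 without another WT library), 0.45 for Osbpl5 (0.30 without WT day 2 replicate 1, adjusted p = 0.181, 0.39 without WT day 0 replicate 2, adjusted p = 0.0723, and 0.51 to 0.60 without another) and -0.62 for Mcts2 (-0.29 without WT day 0 replicate 2, adjusted p = 0.0852, -0.53 without WT day 2 replicate 1, adjusted p = 0.0545, and -0.71 to -0.94 without another), and these genes did not pass in the mutants. In WT Mcts2 also did not pass after median-ratio scaling (-0.37), quantile normalization (-0.33) or removal of the length trend (-0.23). For Nap1l4, Osbpl5 and Mcts2 the change of the difference from WT between day 2 and day 0 did not pass in either mutant.

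Outside the 40 genes, 16 of 28 others that have been reported as imprinted were tested. At day 0, 6 were higher and 3 lower in QKO than in WT (56.2%, against 35.5% of all genes). In TKO 3 were higher and 1 lower (25%, against 23% of all genes). They include Pon3 in both mutants, Casd1 in QKO and Tfpi2 in TKO, given above, and Cobl, next to Grb10 on chromosome 11 and an actin nucleator, with a log2 fold change of 1.10 in QKO and 1.40 in TKO. The median of the 16 was 0.24 in QKO and 0.12 in TKO. Of 14 tested genes that set or maintain imprints, 1 was higher and 5 lower in QKO (42.9%, against 35.5% of all genes) and 1 higher and 3 lower in TKO (28.6%, against 23% of all genes), with medians of -0.19 in QKO and -0.07 in TKO. Zfp57, whose motif is marked in the promoters above, was at 13.004 and 12.3 RPKM in QKO, 9.35 and 10.1 in TKO and 18.5 and 31.1 in WT, with log2 -0.87 in QKO and -1.22 in TKO. Tet2, an enzyme that oxidises methylated cytosine, was the higher gene, at 1.07 in QKO and 0.86 in TKO. On day 1, 1 of the 16 other imprinted genes was lower in QKO (Dhcr7) and 2 in TKO (Dhcr7 and Qpct), where 2.76% of all genes passed in QKO and 2.08% in TKO.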

How the data were processed

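RNA was measured in 18 libraries in 9 groups of 2 (QKO, TKO and WT on days 0, 1 and 2). Per the labels and the methods of the study, the authors extracted RNA with TRIZOL, made TruSeq libraries for a HiSeq X sequencer, aligned reads to protein-coding genes of GRCm38.p5 with HISAT2 2.0.5 and quantified them with StringTie (version not given in the sources used here). The values are the RPKM the authors deposited, in 1 table of 22013 rows. Of rows with the same symbol only the one of highest mean was used, so 1401 rows dropped out. Gene positions and overlaps are from the GENCODE annotation of GRCm38.

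Members and gene lists were chosen with earlier results of these data known. Genes at 1 RPKM or more in 2 or more libraries entered as log2(RPKM + 1). The model, from limma 3.58.1 (R 4.3.3), had 1 mean per group and 9 residual degrees of freedom, with eBayes run with trend and robust. The 22 contrasts were each adjusted by Benjamini-Hochberg over all 11890 genes, with 0.05 as the threshold. Differences of differences subtract the mutant effect at day 0 from that at day 1 or 2. Asb4 passed the filter only through WT day 0 and was tested for no single value, though the counts over 30 genes include it.

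Whole reads were recovered from the steps of the RPKM for 16537 of 16548 rows (within 0.1 of a read, 99.9% of values), against 2.2% of 500 control rows. Of the values from 1 to 20 reads, 63.3% were even. Depth limits low genes as given in the report, and intervals were not computed.

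Genes given library by library were those that passed in a genotype contrast, those that passed at 2-fold or more between day 2 and day 0 and the most abundant of each cluster. Others are given by range. The sources do not say whether replicate numbers pair the libraries, and the main fit did not pair them. Over 36 pairs of groups the correlation of deviations was -0.385 to 0.550 (median 0.039), above 0.1 in 10. Between day 2 and day 0 it was -0.084 in QKO, 0.305 in TKO and 0.057 in WT. Alternatives were a pseudocount of 0.1, no filter, median-ratio scaling, quantile normalization, voom on the recovered reads, removal of a length trend (loess, span 0.5), the replicate number as a block, fits of only the day or genotype compared, and leaving out each of the 18 libraries. Matplotlib 3.10.9, pandas 2.3.3 and NumPy 2.4.6 ran under Python 3.11.15.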

Additional observations from a re-analysis of the deposited data

Results flagged for a closer look

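The difference of a mutant from WT was itself compared between days, in the same limma fit, and passed at an adjusted p under 0.05 for the imprinted genes below. Values are the difference at the later day less that at day 0, on log2(RPKM + 1), so that a negative value means that the mutant lay higher relative to WT at day 0. WT day 0 enters all of them, and its libraries stood apart by Hox genes. The part of that in these values was not tested.

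Asb4, which passed the filter only through WT day 0, was left out. In QKO at day 1, 5 of 29 genes changed (11% of all genes): Ddc (-1.53), Ppp1r9a (0.67), Nnat (-1.77), Inpp5f (0.64) and Ampd3 (-1.84). In QKO at day 2, 3 changed (12.7% of all genes): Ddc (-1.39), Nnat (-2.68) and Ampd3 (-1.96). In TKO at day 1, 7 changed (9.34% of all genes): Igf2 (1.57), Ddc (-1.39), Copg2 (-1.06), Ndn (2.19), Nnat (-1.86), Inpp5f (0.68) and Ampd3 (-1.51). In TKO at day 2, 5 changed (8.52% of all genes): Igf2 (1.76), Igf2r (-1.34), Ddc (-1.33), Nnat (-2.11) and Ampd3 (-1.21).

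Ddc and Nnat passed in all 18 fits that each left out 1 library, in both mutants and on both days. At day 1 Nnat did not pass with voom in either mutant, nor with a pseudocount of 0.1 in QKO. The calls on Ampd3 held in all 18 except in TKO at day 2, where 2 lost it. The others were less stable in these fits: Igf2 in TKO at day 1 was lost in 6, Ndn in 7, Inpp5f in 8 in TKO and 12 in QKO, Copg2 in 13, Ppp1r9a in 5 and Igf2r in 14. Igf2r in TKO at day 2 was -0.77 without WT day 0 replicate 2, the library with 12.6 RPKM.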

How the results depend on the processing

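The counts include Asb4. With 2 libraries a group they moved most where few genes passed. Fits of only the day or genotype compared gave 7 genes for QKO against WT and 0 for QKO against TKO at day 0, 11 and 2 for these at day 1, 7 for TKO against WT (day 1), and 13 in WT between day 2 and day 0. A pseudocount of 0.1 gave 1 for QKO against TKO at day 0. For TKO against WT at day 1 no filter gave 0, voom 0, and median-ratio scaling and the length trend 5 each. Of these 5, 3 were higher and 2 lower, and a pseudocount of 0.1 gave 2 higher and 1 lower. The length trend gave 7 for QKO against WT at day 1 (6 higher, 1 lower), and quantile normalization 1 for QKO against TKO at day 1. The cause of these moves was not tested. Leaving out 1 library at a time gave 9 to 18 genes for QKO against WT (9 without WT day 0 replicate 2), 9 to 16 for TKO against WT and 0 to 4 for QKO against TKO at day 0. It gave 0 to 8, 0 to 5 and 0 to 1 at day 1 and 0 to 5, 0 to 4 and 0 to 1 at day 2. Day 2 against day 0 gave 16 to 20 in QKO, 16 to 20 in TKO and 16 to 21 in WT. Of the values of single genes, 1219 kept direction and call under the settings other than leaving out a library, 112 kept the direction without passing, and Mcts2 in WT at day 1 against day 0 reversed to 0.0047 with the length trend removed.

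The replicate number was also used as a block, though the sources do not say whether it pairs samples. The counts were then 15, 12 and 2 for QKO against WT, TKO against WT and QKO against TKO at day 0. They were 4, 3 and 0 at day 1 and 0 each at day 2, and 20, 19 and 20 for day 2 against day 0 in QKO, TKO and WT. Crossing the numbers at day 0, an alternative chosen after seeing the data, gave 15 for QKO against WT and 3 for QKO against TKO.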
